A study of Mus musculus with 24 samples.

Results

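The diet response of galectin-3-deficient (KO) muscle endothelium was compared with that of wild-type (WT) muscle endothelium on 12 of the 24 microarrays of a mouse study of high-fat feeding. The 12 arrays are those whose titles name skeletal muscle, and they form 6 pairs of a high-fat diet (HFD) array and a chow array of the same strain and trial, 3 KO pairs and 3 WT pairs. Each pair gives a log2 ratio of HFD over chow for every probe, and a difference between the strains is the mean of the 3 KO ratios minus the mean of the 3 WT ratios. A positive difference can therefore come from more gain or from less loss on HFD in KO, so the ratios of both strains are given beside it.

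WT mice were C57BL/6 J. KO mice were B6.Cg-Lgals3tm1Poi/J, homozygous for a targeted deletion in the galectin-3 gene that removes the initiating codon from every cell, not from the endothelium alone. Male mice of both strains ate either HFD, with 60% of calories from fat, or chow, with 12%, for 8 weeks from the age of 8 weeks. Each of 3 trials was an independent experiment in which tissue was pooled from 3 mice per group by the methods and from 3 to 4 by the design text, so an array measures a pool and not a mouse. The spread between trials holds the spread between pools together with that of slide and scan. Each trial had its own slide for muscle, and trial 1 was scanned in another session than trials 2 and 3. The plantaris, gastrocnemius and biceps femoris were digested together, and about 10000 live CD105+/CD45- cells were sorted, CD105 being a surface protein of endothelial cells and CD45 one of leukocytes. In such bulk RNA, fewer cells of a type and less RNA per cell cannot be told apart.

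Galectin-3 is a sugar-binding protein that can bind proteins modified by glucose and is made by macrophages and many other cells. The endothelium of skeletal muscle is mostly capillary. It passes insulin, glucose and fatty acids from the blood to the fibres, and it sets local tone and leukocyte entry through nitric oxide, endothelin, prostanoids and adhesion molecules. Lymphatic vessels in the same tissue drain fluid and fat and carry markers such as Lyve1.

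On these arrays 25682 of 41174 probes were tested, and 21199 of them were well above background on all 12 muscle arrays. Levels are log2 of the processed signal over the array's 75th percentile, so 0 is a bright probe and levels of different probes cannot be compared. Of the 20 endothelial marker genes listed 19 were tested, all 19 were well above background on all 12 arrays, and their median difference between the strains was 0.03. Before any strain difference is read, both HFD arrays of trial 1 need a caution. On 23 probes that separated KO from WT in the 16 arrays of trials 2 and 3 of both tissues, with WT set at 0 and KO at 1, the muscle arrays of trials 2 and 3 lay from -0.08 to 0.09 in WT and from 0.94 to 1.01 in KO. Those arrays chose the probes and set the scale, so their closeness to 0 and 1 was built in. The arrays of trial 1 had no part in the choice. In trial 1 the chow arrays were at 0.19 in WT and 0.91 in KO, but the HFD arrays were at 0.49 in WT and 0.58 in KO, between the strains. Values without trial 1 are therefore given for the main results.

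The single Lgals3 probe was well above background on all 24 arrays, KO arrays included. Its muscle levels were 4.77, 4.98 and 4.31 on WT chow in trials 1, 2 and 3, 3.61, 3.27 and 3.46 on WT HFD, 5.08, 5.12 and 4.64 on KO chow, and 4.31, 6.31 and 5.04 on KO HFD. KO was thus not lower than WT on this probe, and whether the probe lies in the deleted part was not known, so it checks no label. The difference of its diet responses was 1.51 ± 0.55 (SE, 95% CI 0.21 to 2.81).

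Across all probes no difference between the strains passed the adjusted test. No probe had an adjusted p below 0.05 for the difference in limma, the smallest being 0.80, and 1059 probes, 4.12%, had an unadjusted p below 0.05, 568 (2.21%) with KO above WT and 491 (1.91%) with KO below. Confidence intervals given below are limma's, for each gene alone and not adjusted for the number of probes, and no gene with an interval that excludes 0 passed the adjusted test. The intervals and standard errors come from a fit that does not pair the strains by trial. The median 95% confidence interval of a probe, not adjusted, reached 0.99 on either side of its difference. This width is not a limit of detection, since no difference of any size passed the adjusted test. All 3 KO ratios lay above all 3 WT ratios for 1072 probes (4.17%) and below them for 1077 (4.19%). After each gene was taken by its brightest probe, 465 of 13623 genes (3.41%) had all 3 KO ratios above all 3 WT ratios and 584 (4.29%) had all 3 below. The difference was above 0 for 52.1% of all genes and below 0 for 47.9%. These percentages are the background for every count in a list. Genes with several tested probes are shaky where the probes disagree: of 120 other tested probes of the named genes 40 had a difference of the opposite sign to the brightest one. An exact permutation test of 3 pairs against 3 cannot go below p = 0.1, which is its value for any separated gene.

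The separated genes were of several kinds. Of the 465 genes with KO above WT, 319 had a WT mean below 0 and a KO mean above 0, 120 had both means below 0 and 26 had both above. Of the 584 with KO below WT, 385 had a WT mean above 0 and a KO mean below 0, 142 had both means above 0 and 57 both below. The size of the response did not differ beyond the spread between pairs: 12.8, 22.2 and 15.9% of probes were past 1 in either direction in the WT pairs and 13, 28.5 and 12.1% in the KO pairs (means 17 ± 4.82% and 17.9 ± 9.23%, SD, exact permutation p = 0.9). Both strains had their widest pair in trial 2.

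The pairs were alike by trial as well as by strain, except in trial 3. Across probes, the ratios of WT and KO correlated at 0.37 in trial 1, 0.36 in trial 2 and 0.11 in trial 3. WT pairs correlated with each other at 0.22 to 0.30 and the KO pairs of trials 1 and 2 at 0.26, while the KO pair of trial 3 correlated at 0.02 and 0.05 with the other KO pairs. These are correlations over 25579 to 25635 probes, which share arrays and signal range and are not independent replicates. The KO pair of trial 3 stood apart in the marker lists as well, as given with the macrophage genes.

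Within each strain the diet response had an unadjusted p below 0.05 for 3098 WT probes (12.1%) and 2181 KO probes (8.49%), and limma's adjusted p passed 0.05 for 0 WT probes and 1 KO probe (0.00389%), that of Cyp2e1. A response past 1 in the same direction in all 3 trials was seen for 224 probes up (0.872%) and 245 down (0.954%) in WT, 118 up (0.459%) and 136 down (0.53%) in KO, and 38 up (0.148%) and 18 down (0.0701%) in both strains. Col15a1, a collagen of the vascular basement membrane, was one of the shared ones, with ratios of 2.46, 2.68 and 2.27 in WT and 2.67, 2.77 and 2.16 in KO. Its difference was 0.07 (95% CI -0.68 to 0.82). Aplnr, the apelin receptor, and Tbxa2r, the thromboxane receptor, likewise lay between 1.13 and 2.45 in all 6 pairs, with differences of 0.22 (-0.78 to 1.22) and -0.04 (-0.86 to 0.78). A second probe of Aplnr had ratios from 0.65 to 1.79 over the 6 pairs. These intervals still allow differences of well over 0.5 either way.

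The 54 gene lists gave medians of the difference from -1.18, for macrophage and antigen presentation genes, to 0.80, for clock output factors. The median over all genes was 0.02. For 42 of the lists the median lay within 0.25 of 0. Satellite cell genes, which mark the stem cells of muscle, came next to the highest at 0.75, with 7 of 8 tested genes above 0 and none separated, and their median was -0.02 without trial 2.

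**Figure D1:**
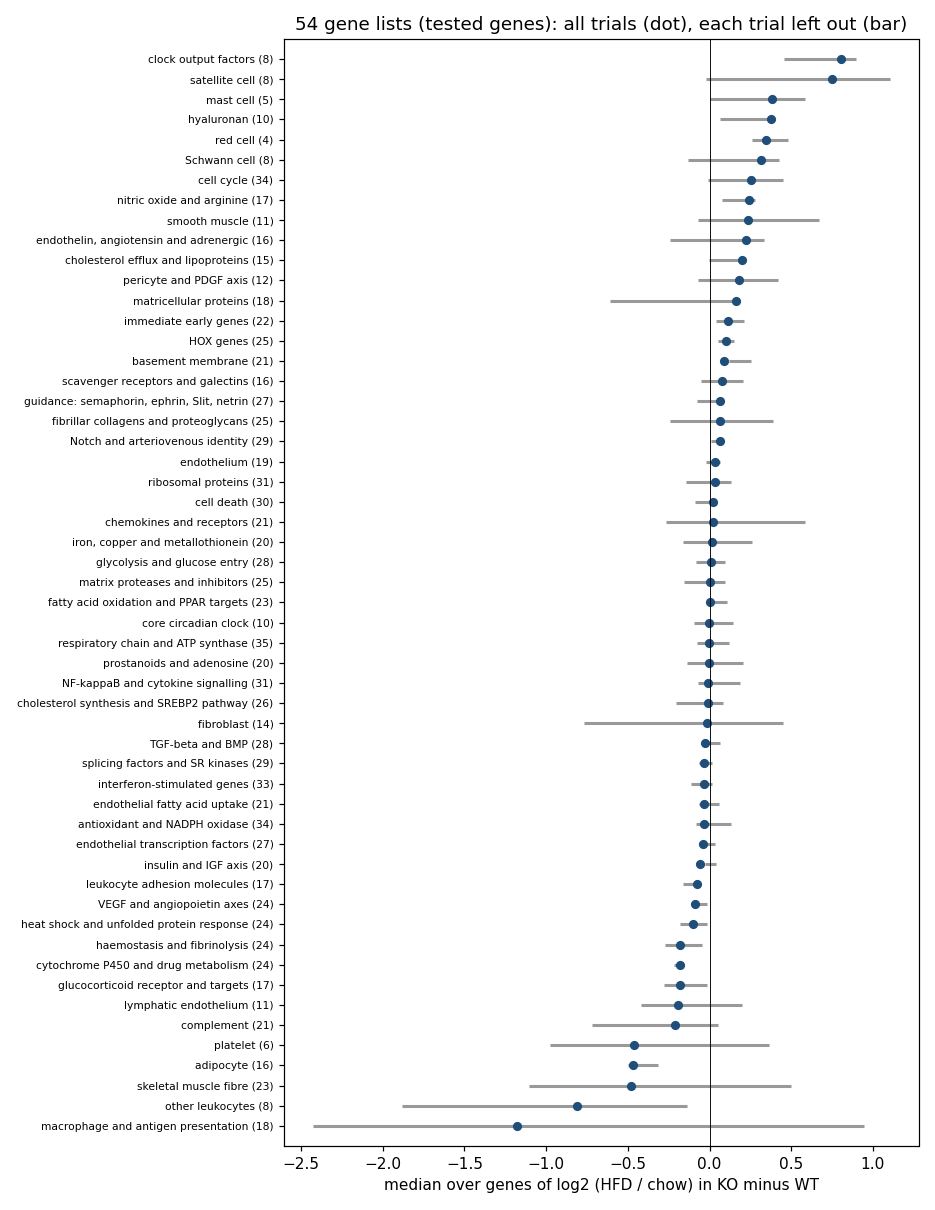
Median difference of the diet response (KO minus WT, log2) of the tested genes of each of 54 lists, with the number of genes tested in parentheses. Dots use all 3 trials and bars span the values with each trial left out in turn. Most dots sit near 0, and the macrophage list at -1.18 has the widest bar, from -2.43 to 0.94.

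Clock output factors gave the highest list median over all 3 trials, 0.80, but not without trial 3, where it was 0.46, below the satellite cell and macrophage lists (both 0.94) and the chemokine list (0.58). In the circadian clock, the Arntl and Clock proteins drive genes that carry E-boxes, among them the Per and Cry genes whose products repress them, and Dbp, Tef and Hlf, the output factors that act on D-boxes. The Nr1d1 and Nr1d2 proteins repress Arntl, against activation by Rora. These transcripts swing with the time of day, and the hour of tissue collection was not given in the sources used here. Of the 9 output factors listed, 8 were tested. Differences were above 0 for 7 of them, against 52.1% of all genes, and 4 had separated strains, all with KO above WT, against 3.41% of all genes.

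Dbp had levels of 2.22, 1.70 and 1.25 on WT chow, 3.54, 2.51 and 2.42 on WT HFD, 2.51, 1.46 and 1.09 on KO chow and 5.61, 4.22 and 3.13 on KO HFD in trials 1, 2 and 3. HFD was above chow in all 6 pairs, by 1.32, 0.81 and 1.17 in WT and by 3.10, 2.76 and 2.04 in KO. In fold terms the mean response was 2.14 in WT and 6.21 in KO. The chow levels of the strains differed by only -0.04 ± 0.28 (KO minus WT, SD over 3 trials), so the gap lay on HFD, where it was 1.5 ± 0.71. The difference of the responses was 1.54 ± 0.38 (SE, 95% CI 0.64 to 2.43), 1.41 without trial 1, 1.33 without trial 2 and 1.87 without trial 3.

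Tef, the nearest relative of Dbp, had ratios of 0.11, -0.09 and 0.54 in WT and 1.14, 0.68 and 1.41 in KO. The lowest KO pair lay just above the highest WT pair, and the difference was 0.89 ± 0.34 (95% CI 0.07 to 1.71). Hlf, the other member of this family, had ratios of 0.04, -0.10 and -1.24 in WT and 0.72, 0.11 and 0.49 in KO, with a difference of 0.87 (95% CI -0.15 to 1.89), or 0.44 without trial 3. All 3 members of the family therefore had separated strains in the same direction. Rora was below 0 in all 6 pairs, at -0.76, -1.46 and -1.84 in WT and -0.64, -0.64 and -0.58 in KO, and its difference of 0.73 (95% CI -0.12 to 1.59) came from a smaller loss in KO. Another probe of Rora, also well above background on all 12 arrays, gave 0.63 but with overlapping pairs. Ciart, a repressor of Arntl and Clock, averaged 0.31 ± 0.75 in WT and 1.63 ± 1.39 in KO with overlapping pairs (difference 1.32, 95% CI -0.46 to 3.10).

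Arntl had the opposite pattern. Its levels were 1.67, 1.58 and 2.04 on WT chow, 0.96, 2.05 and 1.81 on WT HFD, 1.80, 2.01 and 1.73 on KO chow and -0.07, 0.49 and 0.98 on KO HFD. The ratios were -0.71, 0.47 and -0.23 in WT and -1.87, -1.53 and -0.75 in KO, and the highest KO pair lay only just under the lowest WT pair. The difference was -1.22 ± 0.45 (SE, 95% CI -2.30 to -0.15), and -1.26 without trial 1 and -0.84 without trial 2. KO minus WT was -1.14 ± 0.38 on HFD and 0.08 ± 0.38 on chow (SD over 3 trials). Cry1 leaned the same way (difference -0.82, 95% CI -1.73 to 0.09) on its brightest probe, but another probe of the gene gave 0.42.

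The other tested genes of the core clock had overlapping pairs. On its brightest probe Nr1d1 had ratios of 3.25, 1.22 and 2.85 in WT and 3.40, 1.80 and 2.50 in KO and a difference of 0.12 (95% CI -1.43 to 1.67). Its 2 other probes, both well above background on all 12 arrays, did not show this rise, with ratios from -0.09 to 0.43 in WT and from 0.05 to 1.01 in KO and differences of 0.60 and 0.30. Nr1d2 was 1.39 to 1.87 in WT and 1.16 to 1.53 in KO, and Clock lay within 0.32 of 0 in every pair on its brightest probe, while 2 other probes gave differences of -0.49 and -0.37. Per2 ran from -4.03 to -0.25 in WT and from -1.11 to 0.29 in KO on its brightest probe, and its difference was 1.33 (95% CI -0.99 to 3.65). Another Per2 probe, well above background on all 12 arrays, ran from -0.52 to 0.24 in WT and from -0.33 to 1.08 in KO, with a difference of 0.44. Of the 12 core genes 10 were tested, 4 with a difference above 0 and 6 below, Arntl was the only one separated, and the list's median was 0.00. Npas2, Per3 and Bhlhe41 were not tested because their probes were too dim.

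**Figure D2:**
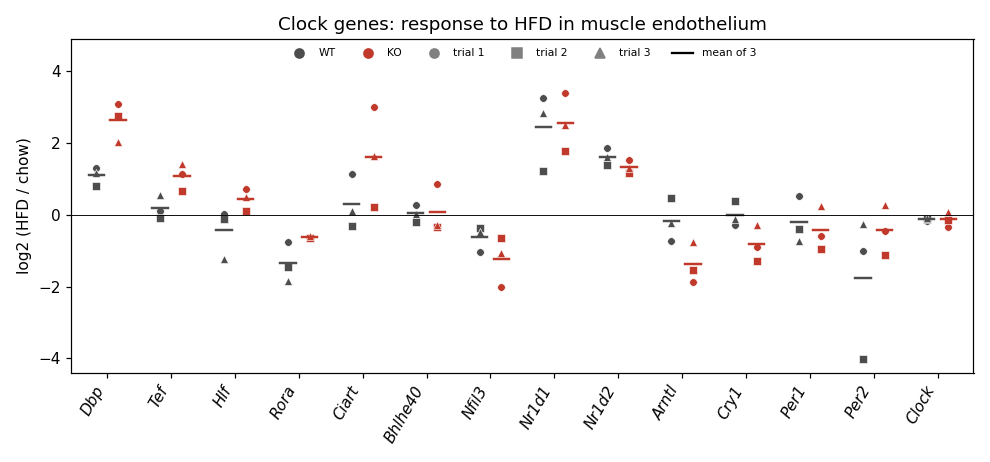
Log2 ratio of HFD over chow for 14 clock genes in each pair, with WT in grey and KO in red, trials by symbol, and a line at the mean of 3. Dbp, Tef, Hlf and Rora have all KO pairs above all WT pairs and Arntl has all below, while Nr1d1, Nr1d2 and Clock overlap.

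The stretch just upstream of the clock genes was read for the motifs named above, since genes of this set lay on both sides of 0. RefSeq promoters (GRCm38.p6) were found for 17 of the 21 genes in both clock lists, and the 250 bases before each start were searched on both strands. The E-box, CACGTG, was in the window of 5 genes, against 6.02% of 32851 promoters. The D-box, TTATGTAA or TTACGTAA, was in that of 1, Per3 (0.931% of promoters), and the Nr1d and Ror element, an A, any pair of bases and TAGGTCA, in none (0.609%). A clock gene counted if any of its promoters matched, and some have several, whereas the percentages are over single promoters. The counts and percentages are therefore unlike measures. Shown here 5' to 3', with the E-box in capitals, are the tested genes Tef and Ciart, whose differences were above 0, and Cry1, whose difference was below 0 on its brightest probe. Tef has 2 promoters in the table, and the first is shown.
Tef (chr15:81802423-81802672, plus strand): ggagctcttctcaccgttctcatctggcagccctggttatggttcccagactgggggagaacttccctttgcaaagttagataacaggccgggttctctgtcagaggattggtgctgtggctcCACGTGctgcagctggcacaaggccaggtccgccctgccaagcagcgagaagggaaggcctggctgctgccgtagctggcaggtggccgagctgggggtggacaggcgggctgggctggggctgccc
Ciart (chr3:95882229-95882478, minus strand): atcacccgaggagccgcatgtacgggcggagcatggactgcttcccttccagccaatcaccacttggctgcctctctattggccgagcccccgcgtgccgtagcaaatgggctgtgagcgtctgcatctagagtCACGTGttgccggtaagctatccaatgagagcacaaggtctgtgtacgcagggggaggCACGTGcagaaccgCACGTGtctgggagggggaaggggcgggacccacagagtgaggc
Cry1 (chr10:85185055-85185304, minus strand): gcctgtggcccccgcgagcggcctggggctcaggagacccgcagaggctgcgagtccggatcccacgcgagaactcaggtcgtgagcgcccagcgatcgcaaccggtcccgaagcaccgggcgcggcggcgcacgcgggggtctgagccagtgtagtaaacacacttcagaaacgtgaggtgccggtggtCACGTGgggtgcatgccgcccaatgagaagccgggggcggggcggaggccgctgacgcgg
Tef has 1 E-box in each of its promoters, Ciart 3 and Cry1 1, and Dbp and Arntl have no match there. A match is a run of letters and says nothing of binding, and a window without one says only that the letters are not in it.

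Lymphatic genes held the largest difference among separated genes measured on all 12 arrays. Lyve1, the hyaluronan receptor of lymphatic vessels, had levels of 0.16, -1.97 and 2.28 on WT chow, 3.15, -0.24 and 2.00 on WT HFD, 2.82, 0.19 and 0.68 on KO chow and 2.16, -1.26 and -2.33 on KO HFD. The levels within a group spread widely, but HFD was below chow in all 3 KO pairs, at -0.65, -1.45 and -3.0, and above it in 2 of 3 WT pairs, at 2.99, 1.73 and -0.28. Within trials, KO minus WT was -3.64, -3.18 and -2.72, a narrow range beside the spread of either strain. The difference was -3.18 ± 0.94 (SE, 95% CI -5.42 to -0.94), -2.95 without trial 1. A dimmer probe of Lyve1, above background on 10 of 12 arrays, gave -1.02 with overlapping pairs. Its ratios were 1.65, -0.29 and -0.51 in WT and -0.20, 2.86 and -4.86 in KO. On that probe KO lay above WT in trial 2, so it did not show the narrow range within trials.

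Other lymphatic genes were less uniform. Mmrn1, a matrix glycoprotein of lymphatic endothelium and platelets, had ratios of 4.48, 1.51 and -1.20 in WT and -1.32, -0.90 and -2.95 in KO (difference -3.32, 95% CI -6.59 to -0.06), and its pairs overlapped. Reln, secreted by lymphatic endothelium, had a difference of -1.89 (95% CI -4.0 to 0.21). Ccl21a, the chemokine that guides leukocytes into lymphatics, ran from -5.01 to 6.34 over the KO pairs. Flt4, the VEGF-C receptor, was at -0.19 (95% CI -1.72 to 1.33), and Pdpn, podoplanin, at 0.49 with all KO pairs above WT. Of 12 listed genes 11 were tested, 4 with a difference above 0 and 7 below, and the median was -0.19, or 0.20 without trial 1. Prox1, which specifies lymphatic identity, was not tested. The summed level of the list was 29.8 to 45.3 on WT chow, 39.6 to 66.1 on WT HFD, 29.5 to 46.2 on KO chow and 32.4 to 50.5 on KO HFD, in units of the 75th percentile, and the part of lymphatic cell number in the Lyve1 result was not tested.

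Some receptors and enzymes that set vascular tone had separated strains, in both directions. Of the 21 genes of the endothelin, angiotensin and adrenergic list 16 were tested. Ace, Agtrap and Adra1a had all KO pairs above WT, against 3.41% of all genes, with unadjusted limma p of 0.19, 0.32 and 0.24. Edn1 and Edn2 had all below, against 4.29% of all genes. The list's median difference was 0.22, or -0.24 without trial 2. Of the prostanoid and adenosine list, with 20 of 26 genes tested and a median of 0.00, only Ptger4 was separated above and only Adora2b below. The same shares of all genes apply.

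Npr1, the natriuretic peptide receptor that makes cyclic GMP, had ratios of -1.90, -1.76 and -1.89 in WT and -0.67, -0.20 and 0.20 in KO. The WT pairs were nearly identical and every KO pair lay more than 1 above them. Levels were -2.35, -1.84 and -1.97 on WT chow and -4.25, -3.60 and -3.85 on WT HFD, against -2.90, -3.14 and -2.40 on KO chow and -3.57, -3.34 and -2.20 on KO HFD. KO was lower than WT on chow in every trial and higher on HFD in every trial. The difference was 1.63 ± 0.33 (SE, 95% CI 0.85 to 2.41), and 1.82 without trial 1. Npr1 stood on no list and was named as one of the 12 largest differences.

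Ptger4, the EP4 receptor for prostaglandin E2, gave -1.90, -1.96 and -0.97 in WT and 0.14, -0.80 and 0.45 in KO, with a difference of 1.54 ± 0.46 (95% CI 0.44 to 2.64). This again was a loss on HFD in WT that was small or absent in KO. Pde4b, a phosphodiesterase that degrades cyclic AMP, and Akap9, an anchoring protein for protein kinase A, stood on no list and were named for being below 0 in all WT pairs and above 0 in all KO pairs. Pde4b had ratios of -0.88, -1.37 and -0.13 in WT and 0.77, 0.27 and 0.70 in KO (difference 1.38, 95% CI 0.42 to 2.33). Akap9 had ratios of -0.96, -0.99 and -1.51 in WT and 0.01, 0.52 and 0.55 in KO (difference 1.51, 95% CI 0.74 to 2.29).

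Edn1, the vasoconstrictor endothelin-1, was below 0 in all 6 pairs, at -0.63, -0.32 and -0.52 in WT and -1.28, -0.97 and -1.25 in KO. The difference was small but even, -0.65, -0.65 and -0.73 in the 3 trials, with a mean of -0.68 ± 0.28 (SE). Adora2b, an adenosine receptor, had the same form, with ratios of -0.58, -0.45 and -0.48 in WT and -1.76, -1.05 and -1.29 in KO (difference -0.86, 95% CI -1.60 to -0.12). Edn2 was well above background on only 4 of 12 arrays and is not read further. Nos3, the endothelial nitric oxide synthase, lay within 0.25 of 0 in every pair, and its difference was 0.02 (95% CI -0.65 to 0.69).

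Of the leukocyte adhesion list 17 of 19 genes were tested, 5 with a difference above 0 and 12 below, against 47.9% of all genes below. Icam1, F11r and Itga6 had all KO pairs below all WT pairs, against 4.29% of all genes. Icam1, the ligand of leukocyte integrins, gave 0.44, 0.15 and 0.14 in WT and -0.53, -1.72 and -1.06 in KO, with the 6 pairs on opposite sides of 0. Its difference was -1.34 ± 0.38 (SE, 95% CI -2.25 to -0.44) and -1.53 without trial 1. Vcam1, the other main ligand, overlapped, with 0.65, 1.38 and 0.62 in WT, 0.62, 0.56 and -0.12 in KO, and a difference of -0.53 (95% CI -1.42 to 0.36). The median of the list was -0.07.

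**Figure D3:**
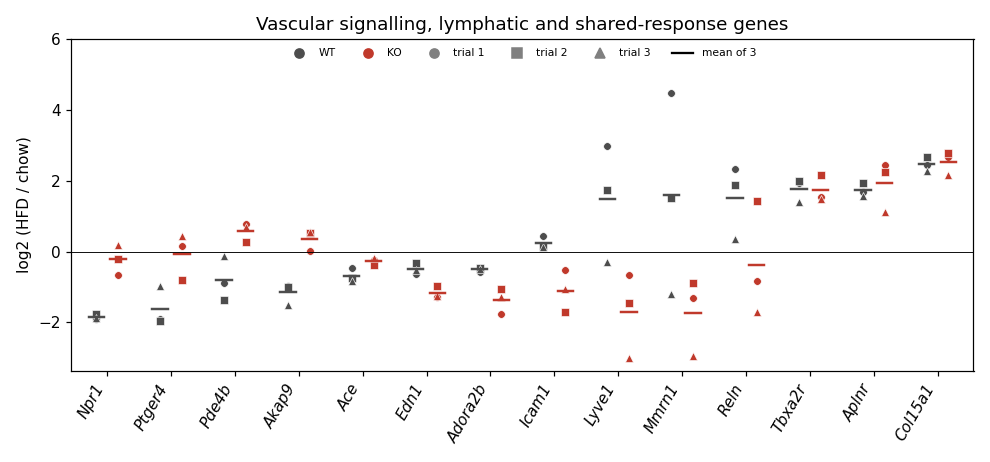
Log2 ratio of HFD over chow in each pair for 14 genes of vascular tone, adhesion, lymphatic vessels and the shared response, with Npr1, Pde4b and Akap9, which stood on no list, WT in grey, KO in red and a line at the mean of 3. Npr1, Ptger4, Pde4b and Akap9 have all KO pairs above WT, Edn1, Adora2b, Icam1 and Lyve1 have all below, and Tbxa2r, Aplnr and Col15a1 overlap.

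Among all genes named by the size of the difference, chosen from the 240 well-measured separated genes with an unadjusted p below 0.05, 12 had KO below WT and 12 had KO above. Their p-values were part of the choice and are descriptions. Slc1a4, a carrier of neutral amino acids, had levels of -3.91, -4.36 and -4.05 on WT chow, -2.30, -3.41 and -2.18 on WT HFD, -1.58, -2.20 and -3.10 on KO chow and -2.54, -2.92 and -4.46 on KO HFD. The ratios were 1.61, 0.95 and 1.87 in WT and -0.95, -0.72 and -1.36 in KO, with HFD above chow in every WT pair and below it in every KO pair. The difference was -2.49 ± 0.37 (95% CI -3.36 to -1.61, limma adjusted p = 0.80), and -2.45 without trial 1. On chow KO was above WT by 1.81 ± 0.75 (SD over 3 trials), and on HFD the mean gap was -0.67 ± 1.44.

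Nhlrc1, which encodes malin, a ubiquitin ligase of glycogen metabolism, had ratios of 1.29, 1.46 and 1.39 in WT and -0.87, -0.09 and -0.38 in KO (difference -1.83, 95% CI -2.58 to -1.07). Here too KO was higher than WT on chow, by 1.67 ± 0.52, and close to it on HFD, at -0.16 ± 0.82. Fgd4, an exchange factor for Cdc42, Trmt10a, a tRNA methyltransferase, Pnp, a purine nucleoside phosphorylase, and Cryzl2 were likewise above 0 in all WT pairs and below 0 in all KO pairs, with differences of -2.11, -1.98, -1.91 and -1.90. Rbp4, the retinol carrier of plasma, had ratios of 1.68, 0.23 and 1.37 in WT and 0.16, -2.36 and -2.19 in KO (difference -2.56). Nudt11, Zc3hav1l, Wdr89 and Lratd1 completed this group, between -2.01 and -1.82.

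With KO above WT, the largest was Kif13b, a kinesin, at 2.00, with ratios of -1.91, -1.10 and -1.16 in WT and -0.78, 1.37 and 1.23 in KO. Prex2, an exchange factor for Rac, had -1.98, -1.62 and -1.70 in WT and -0.30, 0.38 and -0.37 in KO (difference 1.67, 95% CI 0.88 to 2.46). A second probe of Prex2, also well above background on all 12 arrays, gave only 0.35, with overlapping pairs. Trp53bp2, a p53-binding protein, and Narf, which binds prelamin A, had differences of 1.77 and 1.58 on the brightest probe, but a second probe of each gave -0.12 and -0.11. Gk5, of the glycerol kinase family, Hlx, a homeobox factor, 9230114K14Rik, Olfr971, Gipc2 and H2-T24 lay between 1.54 and 1.76. Zfp386 (1.43) and, as above, Akap9, Pde4b, Gipc2 and Olfr971 were the 5 largest among genes below 0 in all WT pairs and above 0 in all KO pairs. Other probes of the leading genes whose difference had the same sign gave -1.73 and -0.22 for Pnp, -1.31 for Nudt11, -1.07 for Lratd1, 0.71 for H2-T24, 0.60 and 1.1 for Akap9, 1.17 for Pde4b and 1.53 for Zfp386. In all, 82 genes (0.602%) had that pattern and 123 (0.903%) its opposite, and 1.78% of probes had either.

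**Figure D4:**
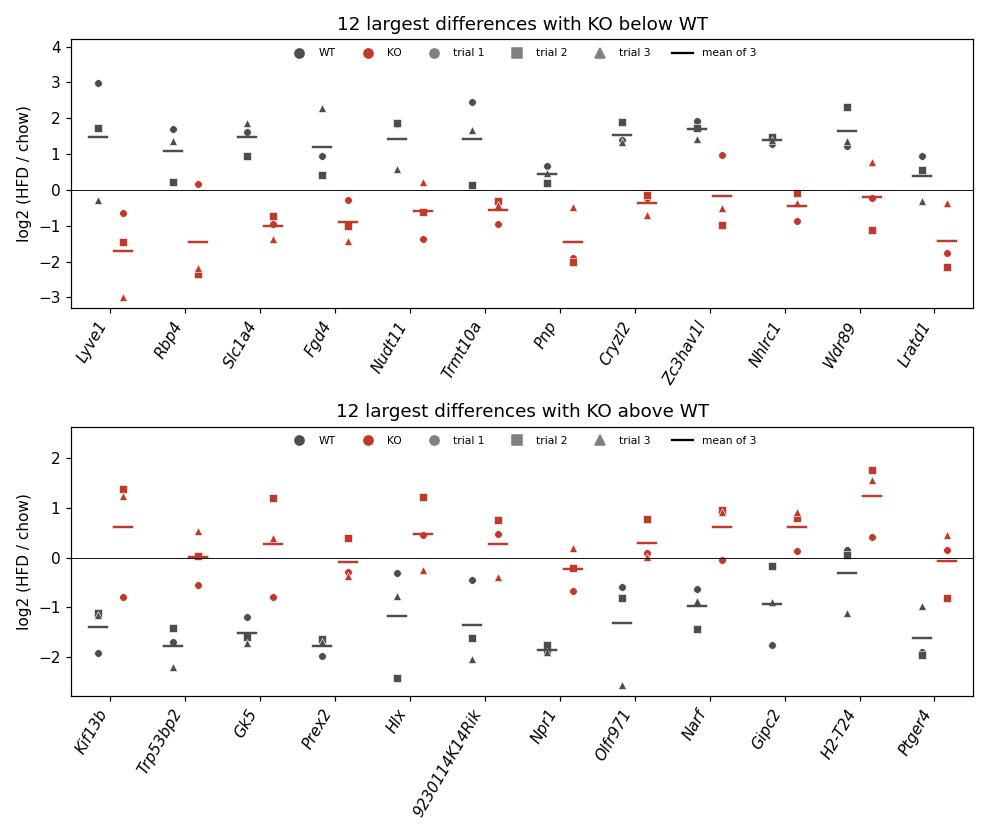
Log2 ratio of HFD over chow in each pair for the 12 largest differences in each direction among well-measured separated genes, with WT in grey, KO in red and a line at the mean of 3. In the upper panel most WT means are above 1 with KO means below 0, and in the lower panel most WT means are below -1 with KO means near 0 or above.

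The macrophage and antigen presentation list had the lowest median, but 1 pair set it. In the pairs of trials 1, 2 and 3 the WT medians of the list were 1.27, 1.19 and 2.65 and the KO medians 2.65, 2.12 and -2.22, so HFD was above chow in 5 of 6 pairs and below it in the KO pair of trial 3. The median difference over 18 of 24 tested genes was -1.18, -0.48 on the 11 genes with probes well above background on all arrays, 0.94 without trial 3, and 0.68 when only that KO pair was left out, an alternative chosen after the values were seen. Ctss, a lysosomal protease of macrophages, had ratios of 2.67, 3.81 and 3.38 in WT and 3.70, 4.68 and -4.07 in KO. Csf1r, the receptor for macrophage growth factor, and H2-Aa, an MHC class II chain, also had their lowest ratio in that pair, at -1.79 and -3.08. Ptprc, which encodes CD45, was well above background on 10 of 12 arrays and had ratios of 3.17, 3.83 and 6.45 in WT and 2.56, 2.30 and -0.49 in KO (difference -3.03).

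The sort on absence of CD45 would remove such cells, yet the summed level of the list ranged from 3.01 to 13.2 on WT chow, 5.52 to 37.1 on WT HFD, 3.54 to 11.1 on KO chow and 2.77 to 79.9 on KO HFD. Cd68, Lyz2, Fcgr1, H2-Eb1, Itgam and Msr1 were not tested because they were too dim. The muscle fibre list, 23 of 24 tested, also had its outlying pair in trial 3 of KO, with a median of -2.01 there, and the list's difference was -0.48, or 0.50 without trial 3. Neb, the giant thin filament protein of fibres, was the only one of these separated (difference -1.68), and its other probe gave 1.62. The part of macrophage or fibre RNA in other results was not tested. Of the main results, without trial 3 the difference was 1.87 for Dbp, -1.58 for Arntl, -3.41 for Lyve1, 1.40 for Npr1, -1.42 for Icam1 and -2.11 for Slc1a4. These genes all had separated strains, so leaving out a trial could change the size of the difference but not its sign.

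**Figure D5:**
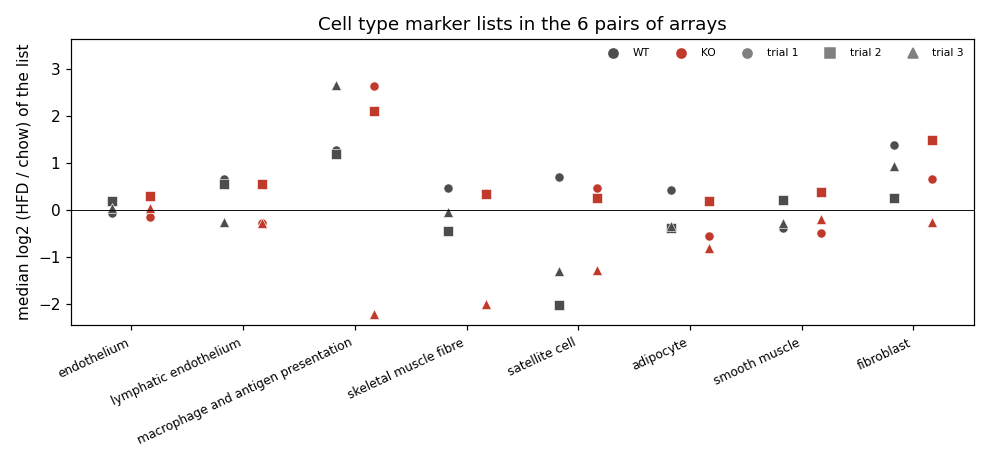
Median log2 ratio of HFD over chow over the tested genes of 8 cell type marker lists in each of the 6 pairs, with WT in grey, KO in red and trials by symbol. The endothelium list stays near 0 in every pair, while the macrophage list is above 1 in 5 pairs and at -2.22 in the KO pair of trial 3.

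Of 11 tested smooth muscle genes 9 had a difference above 0, against 52.1% of all genes, but the list's median of 0.23 was -0.07 without trial 2. Myh11, the smooth muscle myosin, Mylk, its kinase, and Smtn, smoothelin, had all KO pairs above WT, against 3.41% of all genes. Their differences were 0.98 (95% CI -0.09 to 2.05), 0.67 (-0.06 to 1.40) and 0.81 (-0.08 to 1.69), with WT means of -0.92, -0.89 and -0.76. Acta2, the actin of the same cells, was at 0.23 (95% CI -1.5 to 1.96). Among adipocyte genes, 16 of 20 tested, 10 had a difference below 0, against 47.9% of all genes. Their median was -0.47, -0.0073 on the 13 genes with probes well above background on all arrays, and -0.24 without the KO pair of trial 3. Adipoq, adiponectin, had ratios of 1.07, -0.42 and 0.08 in WT and -1.24, -0.23 and -2.04 in KO (difference -1.41, 95% CI -2.81 to -0.02, overlapping), while Acaca, of fatty acid synthesis, had all KO pairs above WT at 1.27 (95% CI 0.36 to 2.18), although another of its probes gave -0.18.

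The metabolic lists had medians close to 0, and some held separated genes. Of the endothelial fatty acid uptake list 21 of 22 genes were tested, with a median of -0.03. Slc27a3, an acyl-CoA synthetase of the fatty acid transport family, gave 0.79, 1.24 and 1.00 in WT and 0.33, -0.83 and -0.05 in KO (difference -1.19 ± 0.39, 95% CI -2.11 to -0.27). Acsl3, of the long-chain synthetases, was at -0.55, and both genes were separated below, against 4.29% of all genes. Cd36, Fabp4 and Lpl, which take up, carry and release fatty acids, had differences of -0.20, 0.09 and 0.29 with intervals that included 0. Fatty acid oxidation, with 23 of 27 tested, and the respiratory chain, with 35 of 35, had medians of 0.00, and glycolysis, with 28 of 31, had 0.01. The insulin and IGF list, 20 of 24 tested, had a median of -0.06. Of these genes Igf1r and Pik3r1 were separated above and Igfbp3 below, against 3.41% and 4.29% of all genes. On 3 other probes Pik3r1 gave -0.64, -0.39 and 0.39.

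Drug-metabolising enzymes held the gene with the smallest p-value of the comparison. Cyp2e1, an oxidase of ethanol and fatty acids, had levels of -3.84, -4.17 and -3.53 on WT chow, -5.76, -5.76 and -6.25 on WT HFD, -0.78, -2.56 and -2.0 on KO chow and -5.96, -8.06 and -7.31 on KO HFD. Its ratios were -1.92, -1.60 and -2.72 in WT and -5.17, -5.50 and -5.32 in KO. KO was above WT on chow in every trial. The difference was -3.25 ± 0.38 (SE, 95% CI -4.14 to -2.36, limma adjusted p = 0.80). The probe was well above background on all chow arrays but on 2 of 3 WT and 1 of 3 KO arrays on HFD, so on HFD the levels of KO in trials 2 and 3 and of WT in trial 3 are only upper bounds. Only in trial 1 were all 4 arrays well above background, with a difference of -3.25, and the mean, its error and the tests rest in part on unmeasured values. The KO response alone passed the test (limma adjusted p = 0.0067), but it did not with any 1 trial left out or with trial as a block. Cyp1a1, induced through the aryl hydrocarbon receptor, was not well above background on any WT HFD array. The size of its fall on HFD in WT was therefore not measured (mean levels: 0.36 on chow and -7.82 on HFD). It was well above background on 1 of 3 KO HFD arrays, so the strains could not be compared. Of the 24 tested genes of this list, 11 were below 0 in all 3 WT pairs and 11 in all 3 KO pairs, against 16.2% and 12.8% of all genes.

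Interferon-stimulated genes, in contrast, were shared. Of 33 tested of 35, 26 were above 0 in all 3 WT pairs and 23 in all 3 KO pairs, against 20.4% and 15.3% of all genes. WT had a median ratio of 0.54 and KO of 0.51, and the median difference was -0.03. Ifit2, Ifit3, Irf9 and Iigp1 had all KO pairs below all WT pairs, against 4.29% of all genes. Ifit2, which binds viral RNA, gave 1.01, 0.77 and 0.92 in WT and 0.40, -0.20 and 0.63 in KO (difference -0.62, 95% CI -1.41 to 0.17).

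Haemostasis genes, 24 of 28 tested, had 17 differences below 0, against 47.9% of all genes, and a median of -0.18, or -0.05 without trial 3. F3, tissue factor, averaged 1.80 ± 0.85 in WT and -0.07 ± 1.16 in KO (difference -1.87, 95% CI -3.52 to -0.23) with overlapping pairs. F8, coagulation factor VIII, which endothelium secretes, was separated below at -2.90, but only 1 of 3 WT chow arrays had it well above background. In the VEGF and angiopoietin list, 24 of 26 tested, Flt1, the VEGF receptor, was separated above at 0.44, against 3.41% of all genes. Pgf, its ligand, Epas1 and Hif3a were separated below at -1.57, -0.27 and -1.21, against 4.29% of all genes. The 95% intervals of Flt1, Pgf and Epas1 included 0. Other probes had overlapping pairs and the opposite sign, at -0.30 for Flt1, 0.33 for Epas1 and 0.23 and 0.13 for Hif3a. Hhex, an endothelial homeobox factor, had ratios of -0.70, -0.49 and -0.50 in WT and 0.72, 0.62 and -0.04 in KO (difference 1.00, 95% CI 0.22 to 1.77). The endothelial transcription factor list it belongs to, 27 of 29 tested, had a median of -0.04, and the Notch and arteriovenous list, 29 of 30, one of 0.06.

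Of the 34 tested cell cycle genes 26 had a difference above 0, against 52.1% of all genes. Only 1, Cdkn1c, had separated strains, with KO above WT, against 3.41% of all genes. The median was 0.26, or -0.01 without trial 2. Ccne2, cyclin E2, averaged -0.84 ± 1.07 in WT and 1.07 ± 0.79 in KO (difference 1.91, 95% CI 0.38 to 3.44) with overlapping pairs. Of the splicing list, 29 of 29 tested, Clk2, a kinase of splicing factors, was separated above at 1.07 and Srsf10, a splicing factor, below at -0.90. The shares over all genes were 3.41% and 4.29%, and another probe of each gave -0.06 and 0.10. Ribosomal proteins, 31 of 31, had a median of 0.03 and no separated gene.

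The 33 transcripts that the study names for muscle endothelium, chosen on these samples and so no independent evidence, had 31 tested, 10 with a difference above 0 and 21 below, against 47.9% of all genes below, and a median of -0.32, or -0.19 without trial 3. Apobec1 and Ace were separated above and Edn1, Adora2b, Lyve1, Ifit2 and Epas1 below, against 3.41% and 4.29% of all genes. Apobec1, an RNA-editing deaminase, had ratios of -0.49, -0.83 and -0.45 in WT and 0.33, 0.12 and -0.06 in KO (difference 0.72), while its other probe gave -0.59.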

How the data were processed

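The labels assign 24 Cy3-labelled 1-colour Agilent arrays to strain, diet, tissue and trial, and 12 muscle arrays were used. Per the file headers, the deposited processed intensity is background-corrected by Agilent Feature Extraction, which the submitters' processing notes give as version 9.1 and the headers as a later one. The authors' deposited log2 table holds the same values scaled by array and was an alternative. Here log2 of the intensity minus the array's 75th percentile over non-control spots was used (limma 3.58.1, R 4.3.3), control and outlier spots were left out (a ratio missing for this reason was not filled), spots of a probe averaged, and probes tested if well above background on all arrays of at least 1 group. The array number limits the precision. The 6 log2 ratios were fitted by strain with lmFit and eBayes, p-values adjusted over all 25682 probes by Benjamini-Hochberg. A gene was its brightest tested probe.

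Trials pair the strains: labels call them independent experiments, each trial's 4 muscle arrays share a slide, and WT and KO deviations correlated at 0.22, 0.21 and 0.11. Between unlike trials the mean was -0.09. Deviations were taken from each strain's own mean, so positive values within trials force a negative mean between unlike trials. The value of -0.09 is therefore no separate evidence of pairing. The main fit did not use this pairing, so its errors and intervals include what the strains of a trial share. A fit with trial as a block was an alternative.

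Named genes were the 12 largest differences per direction (separated, unadjusted p under 0.05, well above background on all arrays), any adjusted p under 0.05, up to 4 smallest p per list, transcripts the study names and Lgals3, and the 5 largest opposite responses per direction. Nr1d1, Ciart, Clock, Bhlhe40, Ccl21a, Flt4, Acta2, Cd36, Fabp4, Lpl, Nos3, Cyp1a1 and Col15a1 were added after their values were seen. Some listed genes were left out and are not reported here. Members and lists were chosen with earlier results of these data known.

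Alternatives were quantile scaling, the deposited table, normexp (offset 50, on the median signal and background columns), other filters, leaving out trials, blocks, a trend prior, the methods' t-test and other probes.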

Additional observations from a re-analysis of the deposited data

Results flagged for a closer look

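For 19 of the named genes every pair of one strain was above 0 and every pair of the other below 0. That the strains differ in direction was judged from the signs alone and was not tested as such, and 1.78% of all tested probes had such signs. With WT above 0 and KO below 0, the differences (KO minus WT, log2) were -2.49 for Slc1a4, -2.11 for Fgd4, -1.98 for Trmt10a, -1.91 for Pnp, -1.90 for Cryzl2, -1.83 for Nhlrc1, -1.68 for Neb, -1.34 for Icam1, -0.90 for Srsf10, -0.57 for Nkx2-3, -0.46 for F11r and -0.27 for Epas1. Another probe of Neb, of Srsf10 and of Epas1 had the opposite sign, and that of Epas1 (0.33) was below 0 in all 6 pairs. With WT below 0 and KO above 0, they were 1.62 for Olfr971, 1.55 for Gipc2, 1.51 for Akap9, 1.43 for Zfp386, 1.38 for Pde4b, 0.44 for Cdkn1c and 0.33 for Rbpj. The last 2, with Epas1, F11r and Nkx2-3, had 95% intervals that included 0.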

How the results depend on the processing

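The difference between the strains had no probe with an adjusted p below 0.05 in limma under any alternative tried. With trial as a replicate block 1545 probes had an unadjusted p below 0.05, against 1059 without it, and with no replicate block over the 12 arrays (4 group means) 580 did. Blocking changed no call of the difference. Adjusted calls of the diet response itself did depend on the fit: in WT 0 became 8 with normexp, 29 on probes well above background on all arrays, 86 with a trend prior and 1 with group means, and in KO 1 became 5, 2, 8 and 4 in the same order, and 0 with the block, with the methods' t-test and with any 1 trial left out. Leaving out a trial leaves 2 pairs against 2, and leaving out the KO pair of trial 3 leaves 2 against 3, which separate more easily: probes with KO above WT then numbered 2228 to 3788, below 2504 to 3907, up in KO and down in WT 484 to 1142, and the reverse 540 to 1034, the lowest of each without that KO pair, an alternative chosen after seeing the data. Probes past 1 in every trial ranged over the same settings from 224 to 608 (WT up), 245 to 999 (WT down), 263 to 619 (KO up) and 298 to 613 (KO down). With normexp these 4 counts were 129, 130, 49 and 43, on probes well above background on all arrays 99, 113, 43 and 34, and with no filter WT up was 373 and KO up 209. The cause of these changes was not tested beyond the fewer samples or probes.

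Among list medians 623 values under alternatives moved by less than the spread between pairs and 25 by more. Without 1 trial, or without that KO pair, the medians were -2.43 to 0.94 for macrophage and antigen presentation, -0.068 to 0.67 for smooth muscle, -0.070 to 0.42 for pericyte and PDGF axis, -0.77 to 0.51 for fibroblast, 0.46 to 0.89 for clock output factors, -0.27 to 0.81 for chemokines and receptors, 0.12 to 0.25 for basement membrane, -0.61 to 0.23 for matricellular proteins, 0.064 to 0.40 for hyaluronan, -0.066 to 0.18 for endothelial fatty acid uptake, -0.24 to 0.33 for endothelin, angiotensin and adrenergic, -0.14 to 0.39 for prostanoids and adenosine, -0.16 to 0.26 for iron, copper and metallothionein, -0.021 to 0.065 for TGF-beta and BMP and -0.069 to 0.19 for NF-kappaB and cytokine signalling. On probes well above background everywhere, mast cell genes were at -0.26 and hyaluronan genes at 0.20, or 0.10 with no filter. Of named genes, 3951 values moved by less than that spread and 113 by more, and among these 134 had the other sign, all for genes not called, 28 of them on other probes (Cry1, Epas1 and Flt1 included). For genes called, with separated strains and an unadjusted p under 0.05, 12 changed sign, all on other probes of the gene: Acaca -0.18, Apobec1 -0.59, Clk2 -0.061, Hif3a 0.23 and 0.13, Mcam 0.12, Narf -0.11, Neb 1.62, Pik3r1 -0.64 and -0.39, Srsf10 0.10 and Trp53bp2 -0.12.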
